A study of Mus musculus with 42 samples.

Results

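The 10 genes described here are effectors and feedback genes of WNT signalling: Lef1, Tcf7, Tcf7l1, Axin2, Notum, Nkd1, Sp5, T, Wnt8a and Lgr5. They were taken by name from both count tables, where all 10 were present among 48321 gene names, and their levels were compared within a table only. Of the 10, 8 passed the filter on low counts in each table, in which 16132 and 15197 genes were tested. Sp5 and T did not pass it in either table.

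The study sequenced RNA of mouse embryonic fibroblasts (MEF), of sorted cells reprogrammed from them and of induced pluripotent stem cells (iPSC), in 42 libraries of 14 groups with 3 replicates each. All libraries are labelled male, and the replicates of the sorted cells are 3 independent lines. The naivex2 lines were bred from B6; 129S4-Tg(Tet1-mCherry)B37Koh and B6;CBA-Tg(Pou5f1-EGFP)2Mnn/J mice and are labelled Tg(mCherry)/wt and Tg(GFP)/wt. The first count table, called the naivex2 table here, holds their MEF, mCherry+/GFP- cells of days 10, 12 and 14, mCherry+/GFP+ cells of days 12 and 14, and iPSC clonal lines. The totalx2 lines were bred from B6- Tet1tm1.1Koh and B6;129S4-Pou5f1tm2Jae/J mice, with the same genotype entry. The second, called the totalx2 table, holds their mCherry+/GFP- cells of days 8, 10 and 12 and mCherry+/GFP+ cells of days 10 and 12. It also holds iPSC clones from a cross of the Tet1tm1Koh allele with the Pou5f1-EGFP transgene, wild type (wt/wt;GFP/wt) or Tet1 knockout (mut/mut;GFP/wt). Each iPSC library is 1 clone at passage 6 to 7, passaged with feeder cells that were removed before RNA was taken. The naivex2 and totalx2 lines are in separate count tables, so any batch difference between them cannot be told apart from the reporter system. The mCherry+/GFP- day 12 library of totalx2 replicate 2 has its gate from its source name alone. In both systems mCherry reports Tet1 and GFP reports Pou5f1, the gene of OCT4. How the fibroblasts were reprogrammed is not given in the sources used here, and neither are the ages of the animals.

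When a WNT ligand binds its receptors, beta-catenin is spared from destruction and joins TCF/LEF factors on DNA. TCF7L1 mainly represses its targets, while LEF1 and TCF7 mostly act as activators with beta-catenin. Axin2, Notum, Nkd1, Sp5 and Lef1 are themselves switched on by the pathway in many tissues. AXIN2 rebuilds the destruction complex, NOTUM removes the lipid that WNT ligands need, and NKD1 binds Dishevelled proteins. In mouse pluripotent cells, relief of TCF7L1 repression favours the naive state, and T (Brachyury) marks the primitive streak.

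The TCF/LEF motif was searched in RefSeq promoter windows (build GRCm38.p6, 300 bases, from 250 before to 50 after a start) as the letters CTTTGNN on both strands, where each N stands for adenine or thymine. Of 32851 windows, 16.9% held at least 1 match. The table had 11 windows for 7 members (Lef1, Tcf7, Tcf7l1, Axin2, Nkd1, Sp5 and T), and 3 of the 11 held a match. Windows are shown for Axin2 and Lef1, whose levels most of the results below turn on, and for Sp5 and T, whose windows hold matches. Capitals mark the matches. The Axin2 window (chr11:108920099-108920398, plus strand) and the window of the most upstream Lef1 start (chr3:131110047-131110346, plus strand) hold none. Sp5 (chr2:70474673-70474972, plus strand) has CTTTGAT on the strand of the gene, its first base 104 bases before the start, and CTTTGTT on the opposite strand, which starts 222 bases before it. T (chr17:8434173-8434472, plus strand) has CTTTGAA on the opposite strand, 235 bases before the start.
Axin2: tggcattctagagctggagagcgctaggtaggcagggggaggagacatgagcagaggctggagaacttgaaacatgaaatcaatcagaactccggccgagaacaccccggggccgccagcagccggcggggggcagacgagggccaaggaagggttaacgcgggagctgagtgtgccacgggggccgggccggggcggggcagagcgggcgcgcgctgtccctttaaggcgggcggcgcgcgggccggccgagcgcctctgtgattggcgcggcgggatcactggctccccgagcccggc
Lef1: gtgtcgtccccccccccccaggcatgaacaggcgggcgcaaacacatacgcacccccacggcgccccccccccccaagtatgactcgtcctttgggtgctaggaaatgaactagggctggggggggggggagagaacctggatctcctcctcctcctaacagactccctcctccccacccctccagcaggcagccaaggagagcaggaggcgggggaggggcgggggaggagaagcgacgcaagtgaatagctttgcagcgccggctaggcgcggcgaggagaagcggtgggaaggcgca
Sp5: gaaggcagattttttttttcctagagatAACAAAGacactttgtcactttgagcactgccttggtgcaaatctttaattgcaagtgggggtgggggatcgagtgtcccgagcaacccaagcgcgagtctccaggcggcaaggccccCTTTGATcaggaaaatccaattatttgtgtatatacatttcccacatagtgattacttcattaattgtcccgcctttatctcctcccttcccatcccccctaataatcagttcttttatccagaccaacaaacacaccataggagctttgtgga
T: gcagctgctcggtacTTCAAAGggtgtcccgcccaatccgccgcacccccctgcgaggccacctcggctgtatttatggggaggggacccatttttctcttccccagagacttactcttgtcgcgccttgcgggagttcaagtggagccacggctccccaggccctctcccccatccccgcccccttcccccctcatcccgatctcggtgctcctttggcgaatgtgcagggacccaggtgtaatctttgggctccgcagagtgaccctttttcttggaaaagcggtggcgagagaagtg
The fourth Lef1 start, within the gene (chr3:131156044-131156343), has CTTTGTA on the opposite strand, 147 bases before it. The windows of Tcf7, Tcf7l1 and Nkd1 hold no match. A match is a description of the sequence only.

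Reads were counted over whole gene bodies on mm10, introns included, with strand. Lef1 spans chr3:131110471-131224356 on the plus strand, Tcf7 chr11:52252371-52283014 on the minus strand and Tcf7l1 chr6:72626378-72789254 on the minus strand. Axin2 spans chr11:108920349-108950783 (plus), Notum chr11:120653788-120661175 (minus) and Nkd1 chr8:88521354-88594884 (plus). Sp5 lies at chr2:70474923-70477729 (plus), T at chr17:8434423-8442496 (plus), Wnt8a at chr18:34542313-34548273 (plus) and Lgr5 at chr10:115450311-115587780 (minus). Lef1, Tcf7, Tcf7l1 and Nkd1 overlap annotated non-member genes on their own strand (Gm42449; Gm26551; Gm37969, Gm38114 and Gm37736; RP23-298O13.2), so their counts leave out any shared reads.

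Libraries held 9693737 to 20783265 counts in the naivex2 table and 6540256 to 20225778 in the totalx2 table. Levels are counts per gene scaled to an equal library total (CPM), given for replicates 1, 2 and 3 in that order or as mean ± SD (n = 3). Mitochondrially encoded genes took over 8% of counts in 1 library of each table: naivex2 day 10 mCherry+/GFP- replicate 1 (8.99%) and wild-type iPSC replicate 1 (12.2%). Without these, no count of called members moved. The labelled cell types match their markers: the summed level of 10 pluripotency genes was 1.36 to 3.12 CPM in MEF and 4049 to 4785 CPM in naivex2 and wild-type iPSC. The summed level of 10 fibroblast genes was 16507 to 17729 CPM in MEF and 935 to 2865 CPM in naivex2 iPSC. A change in bulk RNA can come from fewer cells of a type or from less RNA per cell, which cannot be told apart here. Differences are log2 fold changes ± standard error, called at an adjusted p under 0.05 (edgeR quasi-likelihood F test, Benjamini-Hochberg over all genes of the table). With library totals in place of scaled totals, the median of all genes moved by 0.28 in day 10 cells against MEF, by 0.29 in naivex2 iPSC against MEF and by -0.13 in wild-type iPSC against day 12 GFP+ cells, and 0 members changed sign in these. The share of calls that were higher then went from 49.0 to 59.1% in naivex2 iPSC against MEF, from 50.2 to 63.8% in naivex2 GFP- cells between days 12 and 10, and from 48.3 to 59.0% in totalx2 GFP- cells between days 10 and 8. It went from 49.0 to 37.4% in wild-type iPSC against day 12 GFP+ cells and from 44.9 to 56.0% in knockout against wild-type iPSC.

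On entry into reprogramming the members moved in both directions, as all genes tested did. From naivex2 MEF to day 10 mCherry+/GFP- cells, Lef1, Axin2, Notum and Nkd1 fell and Tcf7, Tcf7l1 and Wnt8a rose, so 3 of 8 tested members were called higher and 4 lower, while 38.8% of all genes tested were called higher and 37.6% lower. Their median log2 fold change was -0.84, the same with Wnt8a at its bound, against 0.06 over all genes. Between days 10 and 12 the mCherry+/GFP- cells lost Axin2 and Wnt8a (0 of 8 higher, 2 lower, background 10.1% in each direction). Between days 12 and 14 Lef1, Axin2, Notum and Wnt8a rose in the same gate, with smaller rises of Tcf7l1 and Lgr5. That made 6 of 8 higher and 0 lower, against 20.6% and 16.2% of all genes, with a member median of 2.03 against 0.04. Mean Lef1 at day 14 was 1.05 CPM in these cells, still below its 10.05 CPM in MEF.

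GFP+ cells of the naivex2 lines held more Lef1, Axin2 and Notum and less Wnt8a and Tcf7l1 than GFP- cells of the same day. At day 12, 3 of 8 members were called higher and 2 lower (9.93% and 6.69% of all genes). At day 14, 4 were higher, Tcf7 included, and 2 lower (14.4% and 16.9%). From day 12 to day 14 the GFP+ cells gained Lef1, Tcf7l1, Axin2, Notum and Wnt8a, 5 of 8 higher and 0 lower (14.5% and 16%). In the same step 7 of 10 fibroblast genes rose and 0 fell, their sum going from 486 to 983 CPM at day 12 to 1515 to 2528 CPM at day 14, and their part in these rises was not tested. From day 14 GFP+ cells to iPSC, 0 members were called higher and 3 lower, namely Tcf7l1, Wnt8a and Lgr5 (24.3% and 22.5%). The difference of the GFP effect between days 14 and 12 was called for 0 of 8 members in either direction by edgeR and by DESeq2, with 1 at an unadjusted p under 0.05 (0.688% and 0.855% of all genes were called by edgeR). iPSC against MEF, which spans the whole course, gave 5 members higher and 2 lower (37.9% and 39.4%).

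In totalx2 cells the GFP+ and GFP- gates differed at day 12. At day 10, GFP+ against GFP- cells gave 0 of 8 members higher and 0 lower (13% and 9.36% of all genes by edgeR), with 2 members at an unadjusted p under 0.05 and 1 called by DESeq2. With the line as a replicate block, 2 were called: Lgr5 higher (adjusted p = 0.0482) and Wnt8a lower (adjusted p = 0.0257). At day 12, Lef1, Tcf7, Axin2 and Notum were higher in GFP+ cells, 4 of 8, with 0 lower (31.2% and 30.4%). The difference of the GFP effect between day 12 and day 10 was called for Axin2 and Notum, 2 higher and 0 lower (10.5% and 16.7%). Along the GFP- gate, Lef1, Axin2, Nkd1 and Lgr5 fell from day 8 to day 10, 0 higher and 4 lower (10.0% and 10.7%). From day 10 to day 12 Notum and Wnt8a fell and Nkd1 rose, 1 higher and 2 lower (16.1% and 12.0%). Along the GFP+ gate from day 10 to day 12, Notum and Nkd1 rose and Wnt8a fell, 2 higher and 1 lower (12.2% and 12.9%). Wild-type iPSC against day 12 GFP+ cells gave Axin2 and Notum higher and Lgr5 lower, 2 and 1 (25% and 26%).

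In Tet1 knockout against wild-type iPSC, Lef1 and Notum were higher, 2 of 8 members, and 0 were lower, with 4.78% and 5.87% of all genes called higher and lower. The median of the 8 members was 0.88 against -0.04 over all genes, but 6 of the 8 were not called. It lies between Tcf7 (0.80 ± 0.32) and Lgr5 (0.96 ± 1.20), neither of them called.

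**Figure D1:**
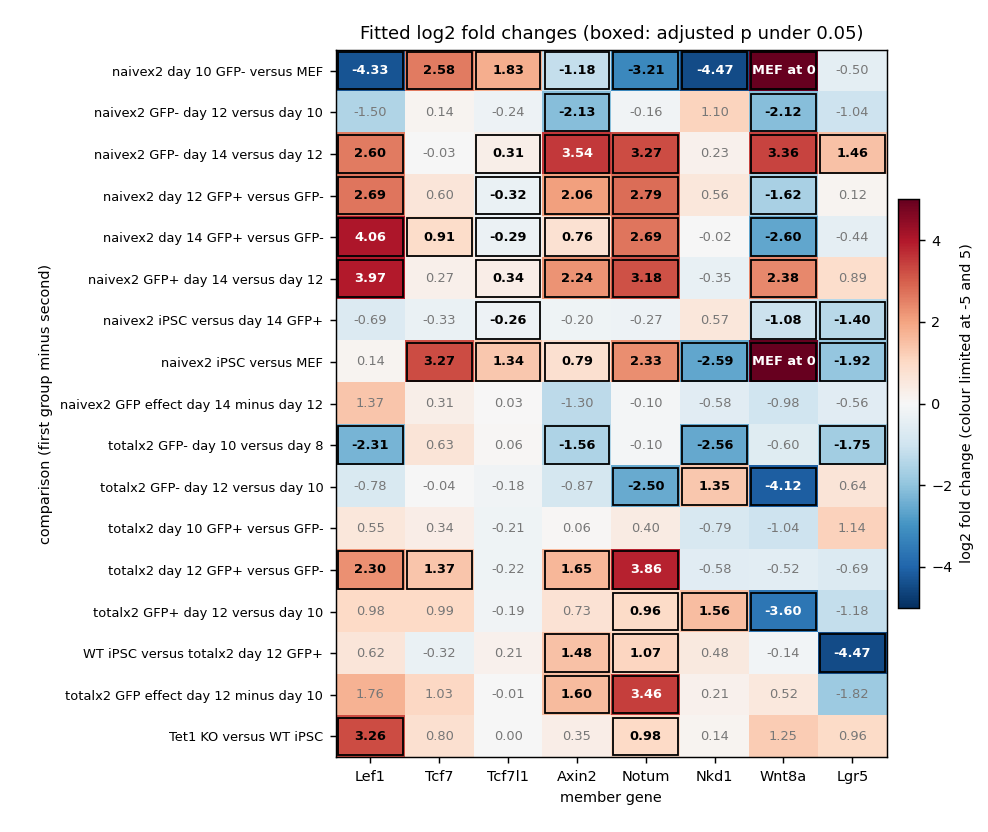
Fitted log2 fold change of the 8 tested members (columns) in each of 17 comparisons (rows), first group minus second; boxed cells passed an adjusted p of 0.05, and cells marked "MEF at 0" had no Wnt8a count in MEF. Lef1, Axin2 and Notum share sign in every naivex2 row but the difference of GFP effects.

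Lef1 encodes the TCF/LEF factor that is itself a common WNT target. In naivex2 MEF it was at 11.4, 10.0 and 8.69 CPM, and in day 10 mCherry+/GFP- cells at 0.842, 0.330 and 0.356 CPM, a 20.1-fold fall (-4.33 ± 0.43, adjusted p = 1.02e-08). Day 12 mCherry+/GFP- cells held 0.0944, 0.253 and 0.132 CPM, or 1, 4 and 2 counts. All 3 day 10 libraries lay above all 3 day 12 ones, yet the difference of -1.50 ± 0.79 was not called (adjusted p = 0.194). By day 14 the GFP- cells were at 1.16, 1.20 and 0.794 CPM (2.60 ± 0.66, adjusted p = 0.00401).

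GFP+ cells held more Lef1 than GFP- cells. They were at 1.58, 1.06 and 0.701 CPM on day 12 and at 23.3, 15.7 and 14.8 CPM at day 14, a 15.6-fold rise (3.97 ± 0.38, adjusted p = 2.22e-07). Against GFP- cells the difference was 2.69 ± 0.67 at day 12 (adjusted p = 0.00792) and 4.06 ± 0.36 at day 14 (adjusted p = 6.04e-08). Groups did not overlap in these 3 comparisons. The difference between the days, 1.37 ± 0.98, was not called (adjusted p = 0.666). naivex2 iPSC held 13.3, 5.08 and 15.03 CPM, with replicate 2 lowest, and overlapped both MEF and day 14 GFP+ cells. Their difference from day 14 GFP+ cells, -0.69 ± 0.29, was not called (adjusted p = 0.0618) but was with the line as a replicate block (adjusted p = 0.0290), with library totals alone (0.0482), without iPSC replicate 1 (0.0464) and without iPSC replicate 3 (0.0165).

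In totalx2 GFP- cells Lef1 fell early. Day 8 mCherry+/GFP- cells were at 3.95, 4.01 and 2.66 CPM and day 10 cells at 0.491, 0.619 and 1.01 CPM (-2.31 ± 0.42, adjusted p = 0.000777). At day 12 the GFP- cells held 0.430, 0.235 and 0.524 CPM and the GFP+ cells 1.01, 2.13 and 2.96 CPM (2.30 ± 0.48, adjusted p = 0.000389), with no overlap. Wild-type iPSC held 5.60, 2.36 and 2.11 CPM, which overlapped the day 8 and the day 12 GFP+ cells.

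Tcf7 encodes TCF1, an activating partner of beta-catenin best known from T cells. It rose from 0.469, 0.674 and 0.473 CPM in MEF to 2.44, 4.03 and 3.06 CPM at day 10 (2.58 ± 0.30, adjusted p = 1.17e-07). The GFP- cells then kept to a range of 2.83 to 4.10 CPM at days 12 and 14. GFP+ cells were above them, at 5.11, 5.12 and 5.78 CPM on day 12 and 5.10, 6.30 and 7.85 CPM on day 14. The day 14 difference was called (0.91 ± 0.22, adjusted p = 0.00379). The day 12 difference of 0.60 ± 0.23 was not (adjusted p = 0.0828), but was with the line as a replicate block (adjusted p = 0.0291). In totalx2 cells Tcf7 was at 4.21, 5.54 and 3.75 CPM in day 12 GFP+ cells against 1.91, 2.12 and 1.05 CPM in GFP- cells (1.37 ± 0.36, adjusted p = 0.00251). Some markers of T lymphocytes, cells that express Lef1 and Tcf7, moved with these genes in part of the GFP contrasts. Their sum did not at naivex2 day 12. Of 3 tested in totalx2 day 12 cells, all 3 (Lck, Zap70 and Cd3e) were higher in GFP+ cells, with list sums of 13.7 to 16.9 against 7.97 to 8.70 CPM and Cd4 and Cd8a at 0 in both gates. In naivex2 cells 2 of 4 (Zap70 and Cd3e) were higher in GFP+ cells on both days, and Lck was lower at day 12. The naivex2 sums were 15.1 to 17.7 against 17.2 to 21.3 CPM at day 12 and 25.1 to 26.7 against 20.3 to 24.02 CPM at day 14. The part of these markers in Lef1 and Tcf7 was not tested. The difference between days 12 and 10 in totalx2 GFP+ cells (0.99 ± 0.36) missed the threshold (adjusted p = 0.0522) and passed it with the replicate block (adjusted p = 0.0385), DESeq2 (0.0344) and RLE size factors (0.0455).

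Tcf7l1 encodes the repressor of the family. It rose 3.55-fold from 64.8, 58.9 and 59.1 CPM in MEF to 268, 184 and 197 CPM at day 10 (1.83 ± 0.10, adjusted p = 6.04e-13). In the other 12 groups its means lay between 146 and 228 CPM. GFP- cells held 184, 184 and 181 CPM at day 12 and 226, 228 and 227 CPM at day 14, against 143, 142 and 154 CPM and 178, 193 and 185 CPM in GFP+ cells. These gaps were small (-0.32 ± 0.10 at day 12, adjusted p = 0.024, and -0.29 ± 0.10 at day 14, adjusted p = 0.0239), with no overlap. The day 12 call was lost without any 1 of 5 libraries (all but GFP+ replicate 3, adjusted p 0.0532 to 0.0804), and the day 14 call without any 1 of the 6 (0.0511 to 0.0829). The rise in GFP- cells from day 12 to day 14 (0.31 ± 0.10, adjusted p = 0.0145) was lost without any 1 day 12 library or day 14 replicate 2 (0.0510 to 0.0622). In the totalx2 table Tcf7l1 was called in 0 of 8 comparisons by edgeR, 0 by DESeq2 and 0 at an unadjusted p under 0.05, and lay between 156 and 247 CPM in the sorted totalx2 libraries. The day 12 GFP difference of totalx2 cells was called in the fit of those groups alone (-0.25, adjusted p = 0.0145), and wild-type iPSC against day 12 GFP+ cells without wild-type replicate 3 (adjusted p = 0.0484).

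**Figure D2:**
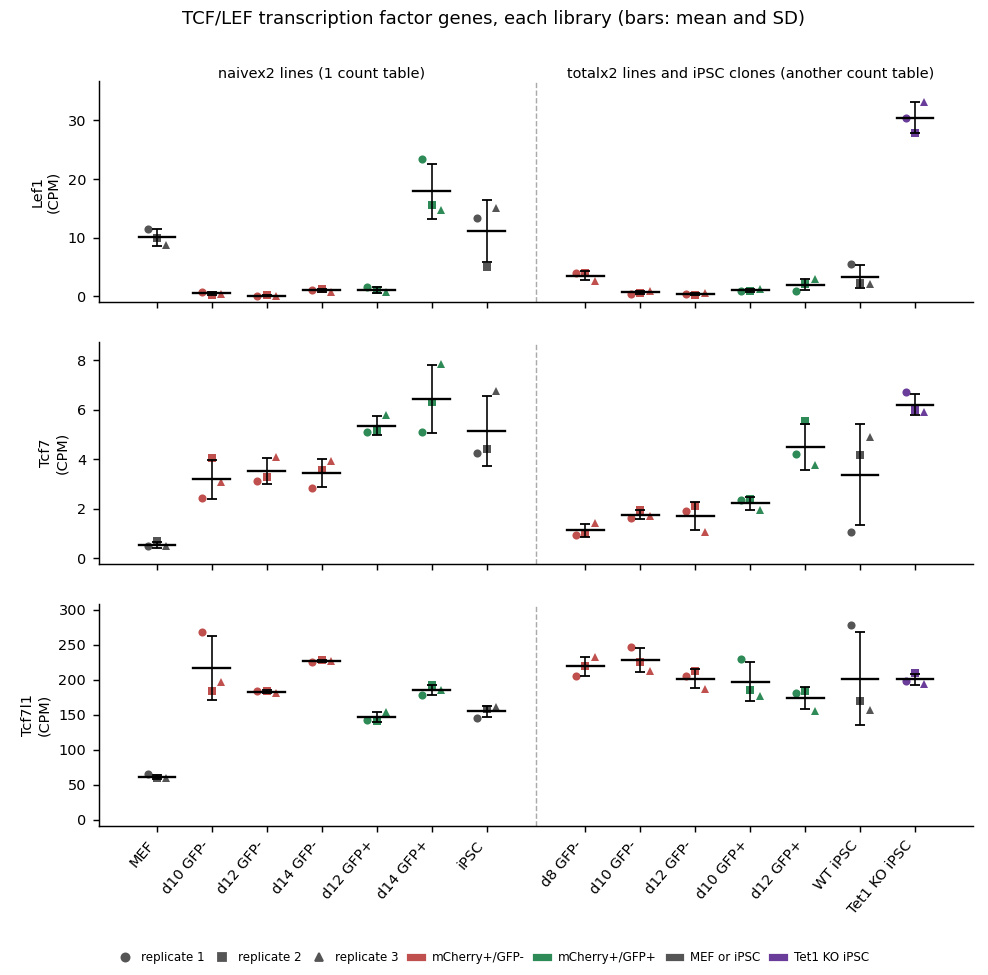
Level (CPM, linear axis from 0) of Lef1, Tcf7 and Tcf7l1 in every library by group; symbols are replicates, the long bar is the mean and the whisker the SD (n = 3). Lef1 peaks in naivex2 day 14 GFP+ cells (14.8 to 23.3 CPM) and in Tet1 knockout iPSC (27.9 to 33.1 CPM), while Tcf7l1 is low in MEF only.

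Axin2, whose product scaffolds the destruction complex, fell and then rose over the naivex2 GFP- cells. It was at 6.63, 5.98 and 6.80 CPM in MEF, 2.86, 2.84 and 2.85 CPM at day 10 and 0.283, 0.886 and 0.661 CPM at day 12. It came back to 8.15, 7.59 and 6.90 CPM at day 14, above every MEF library. The steps were -1.18 ± 0.26 (adjusted p = 0.0003), -2.13 ± 0.35 (adjusted p = 0.000239) and 3.54 ± 0.32 (adjusted p = 5.42e-08), none with overlap.

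GFP+ cells held more Axin2 on both days. They were at 4.03, 2.26 and 1.75 CPM at day 12 (2.06 ± 0.35 over GFP- cells, adjusted p = 0.000265) and at 15.3, 10.4 and 12.9 CPM at day 14 (0.76 ± 0.23, adjusted p = 0.0143). The latter call was lost without GFP+ replicate 1 (adjusted p = 0.0785) and without GFP- replicate 3 (adjusted p = 0.0555). iPSC held 9.97, 14.4 and 9.13 CPM, overlapping the day 14 GFP+ cells.

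In totalx2 GFP- cells Axin2 fell from 5.35, 5.24 and 4.71 CPM at day 8 to 0.901, 1.59 and 2.69 CPM at day 10 (-1.56 ± 0.30, adjusted p = 0.00115) and was at 0.669, 1.06 and 1.26 CPM at day 12. The last step, -0.87 ± 0.35, was not called (adjusted p = 0.071) unless day 10 replicate 1 was left out (adjusted p = 0.0192). GFP+ cells held 1.72, 2.28 and 1.33 CPM at day 10, inside the GFP- range, and 2.38, 3.27 and 3.32 CPM at day 12, above it (1.65 ± 0.34, adjusted p = 0.000303). The GFP effect was thus larger at day 12 than at day 10 by 1.60 ± 0.48 (adjusted p = 0.0184), a call lost without day 12 GFP- replicate 1 (0.0670) or day 10 GFP- replicate 3 (0.0681). Wild-type iPSC held 9.07, 8.80 and 7.19 CPM, above all totalx2 sorted cells.

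Notum encodes a secreted enzyme that inactivates WNT ligands. naivex2 MEF held 2.05, 3.03 and 2.01 CPM, day 10 GFP- cells 0.337, 0.198 and 0.214 CPM and day 12 GFP- cells 0.378, 0.253 and 0.0661 CPM. Counts at days 10 and 12 were 1 to 4 per library, so a change between those days was not detectable at this depth. Day 14 GFP- cells held 2.37, 2.55 and 1.59 CPM (3.27 ± 0.51 over day 12, adjusted p = 4.4e-05). GFP+ cells were at 2.38, 1.06 and 1.23 CPM at day 12 and at 14.99, 15.5 and 12.0 CPM at day 14, a 9.04-fold rise (3.18 ± 0.33, adjusted p = 6.19e-07). They exceeded GFP- cells by 2.79 ± 0.55 at day 12 (adjusted p = 0.00111) and 2.69 ± 0.31 at day 14 (adjusted p = 1.33e-06), without overlap.

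In totalx2 cells the gates differed in Notum at day 12 and overlapped at day 10. GFP- cells held 0.382, 0.118 and 0.210 CPM at day 12 (8, 1 and 2 counts), down from 1.47, 1.59 and 1.77 CPM at day 10 (-2.50 ± 0.45, adjusted p = 0.00061). GFP+ cells held 2.01, 4.68 and 5.70 CPM (3.86 ± 0.42 over GFP-, adjusted p = 2.1e-07) after 1.23, 2.52 and 2.66 CPM at day 10. At day 10 the gates overlapped (0.40 ± 0.35, adjusted p = 0.487), and the difference of the GFP effects was 3.46 ± 0.56 (adjusted p = 0.000356). Within GFP+ cells the rise from day 10 to day 12 (0.96 ± 0.33, adjusted p = 0.0371) was lost without day 10 replicate 1 (0.156) or 2 (0.0647), without day 12 replicate 2 (0.0934) or 3 (0.255), and in the fit of those groups alone (0.133).

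Nkd1, which encodes a Dishevelled-binding inhibitor, was highest in MEF, at 12.4, 9.77 and 8.99 CPM. It fell 22.2-fold to 0.421, 0.726 and 0.214 CPM at day 10 (-4.47 ± 0.38, adjusted p = 8.82e-10). No later naivex2 library exceeded 2.55 CPM, and none of the GFP contrasts was called. In totalx2 cells it was highest at day 8 (4.04, 5.14 and 3.07 CPM), fell to 0.491, 0.973 and 0.589 CPM at day 10 (-2.56 ± 0.31, adjusted p = 3.96e-05) and was at 1.58, 1.53 and 2.20 CPM in day 12 GFP- cells (1.35 ± 0.33, adjusted p = 0.00533). In GFP+ cells it rose from 0.369, 0.361 and 0.444 CPM (3 counts each) to 1.10, 1.70 and 0.866 CPM (1.56 ± 0.43, adjusted p = 0.0115), a call lost without replicate 2 of either day (0.0593 and 0.0615).

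The fibroblast marker genes moved with Nkd1 in several of these steps. Their summed level was 12055 to 19394 CPM at totalx2 day 8, 2243 to 7280 CPM in day 10 GFP- cells, 4050 to 11055 CPM in day 10 GFP+ cells, 7481 to 10626 CPM in day 12 GFP- cells and 1919 to 2353 CPM in day 12 GFP+ cells. From day 8 to day 10 in GFP- cells, 9 of 10 fibroblast genes fell. From day 10 to day 12 in GFP+ cells 9 of 10 fell as well, while Nkd1 rose. Their part in the levels of Nkd1 was not tested.

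**Figure D3:**
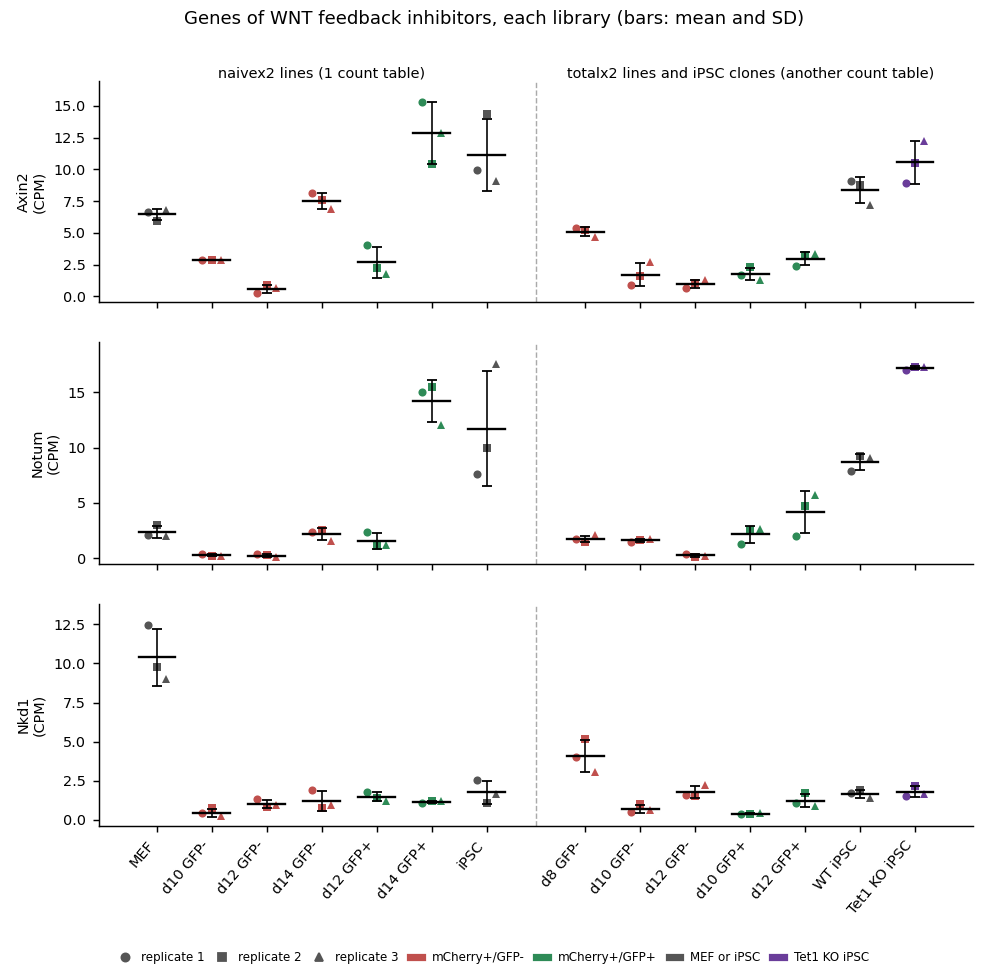
Level (CPM, linear axis from 0) of Axin2, Notum and Nkd1 in every library by group; symbols are replicates, the long bar is the mean and the whisker the SD (n = 3). Axin2 and Notum rise in naivex2 cells at day 14, to 10.4 to 15.3 and 12.0 to 15.5 CPM in GFP+ cells, whereas Nkd1 is highest in MEF.

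Wnt8a, a ligand of the canonical pathway that the embryo uses around gastrulation, rose from MEF to day 10, unlike Axin2, Notum and Nkd1. It had 0 counts in all 3 MEF libraries and 2.104, 3.43 and 1.71 CPM (25, 52 and 24 counts) at day 10 in naivex2 cells, at least 12.0-fold higher when MEF is set to a floor of 3 counts per library (adjusted p = 1.51e-09). GFP- cells fell to 0.472, 0.633 and 0.529 CPM at day 12 (-2.12 ± 0.33, adjusted p = 0.00022). They rose to 6.35, 6.29 and 4.58 CPM at day 14 (3.36 ± 0.31, adjusted p = 1.79e-07). Axin2 moved alike in these steps of the GFP- cells (-2.13 ± 0.35 and 3.54 ± 0.32).

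Wnt8a was lower, not higher, in naivex2 GFP+ cells. These held 0.144, 0.200 and 0.175 CPM at day 12 and 0.882, 1.06 and 0.864 CPM at day 14. The day 14 difference was -2.60 ± 0.29 (adjusted p = 1.96e-06). At day 12 it was -1.62 ± 0.50 (adjusted p = 0.0323) on 2 or 3 counts per GFP+ library, a call lost with no filter (0.0676), with DESeq2 (0.0767) and without any 1 of 5 libraries (all but GFP- replicate 1, 0.0661 to 0.108). iPSC held 0.566, 0.513 and 0.248 CPM, below every day 14 GFP+ library (-1.08 ± 0.38, adjusted p = 0.0254), but this call was lost with DESeq2 (0.0548), with no filter (0.0569), in the fit of those groups alone (0.0567) and without day 14 GFP+ replicate 2 (0.0854) or iPSC replicate 3 (0.105).

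In totalx2 cells Wnt8a was at 10.3, 8.63 and 18.8 CPM at day 8 and at 5.73, 10.0 and 9.26 CPM in day 10 GFP- cells, which overlapped. It then dropped 17.4-fold to 0.191, 0.823 and 0.629 CPM at day 12 (-4.12 ± 0.50, adjusted p = 3.05e-05). GFP+ cells fell from 3.44, 4.57 and 4.14 CPM at day 10 to 0.275, 0.710 and 0.144 CPM at day 12 (-3.60 ± 0.58, adjusted p = 0.000197). At day 10 every GFP+ library lay below every GFP- library, at an adjusted p of 0.065 in the fit without the block. The call was also made by DESeq2 (0.0402), in the fit of those groups alone (0.0227) and without day 10 GFP- replicate 1 (0.0362).

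Keratinocyte and trophectoderm markers were high together with Wnt8a in naivex2 day 14 GFP- cells, but not in every group. In day 14 GFP- cells the 11 trophectoderm genes, Gata3 and Krt8 among them, summed to 506 to 592 CPM, against 269 to 292 CPM at day 12 and 151 to 167 CPM in day 14 GFP+ cells. Of 10 tested trophectoderm genes, 8 rose and 0 fell between those days in GFP- cells. The keratinocyte list stood at 509 to 591 CPM in day 14 GFP- cells and 223 to 265 CPM in day 14 GFP+ cells. From day 10 to day 12 in GFP- cells, where Wnt8a fell, 3 trophectoderm genes rose and 0 fell (sums of 235 to 256 and 269 to 292 CPM), and the keratinocyte sums were 376 to 541 and 339 to 391 CPM. In totalx2 GFP- cells the trophectoderm sum was 44.5 to 75.8 CPM at day 8, when Wnt8a was high, and 147 to 212 CPM at day 12, when it was low. The part of either list in the level of Wnt8a was not tested.

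Lgr5 encodes a receptor for R-spondins that strengthens WNT responses and marks stem cells of several adult tissues. In the naivex2 set it was at 1.47, 1.60 and 1.54 CPM in MEF and between 0.124 and 1.79 CPM in every other library. iPSC held 0.566, 0.513 and 0.124 CPM, below MEF (-1.92 ± 0.51, adjusted p = 0.00172). The rise in GFP- cells from day 12 to day 14 (1.46 ± 0.49, adjusted p = 0.0243) was lost without replicate 1 of either day, without day 12 replicate 3 or without day 14 replicate 2 (0.0800 to 0.0956). The fall from day 14 GFP+ cells to iPSC (-1.40 ± 0.54, adjusted p = 0.0398) was lost without day 14 GFP+ replicate 1 or 2 or iPSC replicate 3 (0.0931 to 0.162).

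Every sorted totalx2 library held more Lgr5 than every iPSC library of the same table. Day 8 cells were at 11.1, 15.7 and 13.3 CPM, day 10 GFP- cells at 0.737, 5.31 and 5.89 CPM and day 10 GFP+ cells at 3.07, 9.97 and 13.3 CPM, with replicate 1 lowest in each day 10 gate. The fall from day 8 to day 10 in GFP- cells was -1.75 ± 0.49 (adjusted p = 0.0164), lost without day 10 replicate 1 (0.0504) or day 8 replicate 2 (0.0652), with no filter (0.0529) and in the fit of those groups alone (0.0558). Day 12 cells held 6.02, 7.06 and 5.56 CPM in the GFP- gate and 3.39, 3.69 and 4.40 CPM in the GFP+ gate. These did not overlap, but the difference of -0.69 ± 0.50 was not called (adjusted p = 0.25) except in the fit of those groups alone (-0.71, adjusted p = 0.0078). Wild-type iPSC had 3, 0 and 3 counts, a difference of -4.47 ± 0.81 from day 12 GFP+ cells (adjusted p = 0.000167). With the replicate block the GFP effect of Lgr5 was lower at day 12 than at day 10 (-1.91, adjusted p = 0.0189), which missed the threshold without it (adjusted p = 0.0649). The fibroblast genes moved with Lgr5 in part of these comparisons. Of 10, 9 fell from day 8 to day 10 in GFP- cells. At day 12 all 10 were lower in GFP+ than in GFP- cells. In wild-type iPSC against day 12 GFP+ cells, 2 of the fibroblast genes were higher and 3 lower, with a median of -0.03. Their sums, given with Nkd1, were highest at day 8 and were 1227 to 1604 CPM in wild-type iPSC, where Lgr5 was lowest. Their part in the levels of Lgr5 was not tested.

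Sp5, a zinc-finger target that feeds back on WNT genes, and T were close to the limit of detection. Sp5 had at most 14 counts in a library and T at most 10. naivex2 day 14 GFP- cells held 11, 14 and 10 counts of Sp5 (0.635, 0.648 and 0.611 CPM) against 2, 0 and 0 at day 12. In a fit with no filter on low counts this rise was 3.49 ± 0.80 (adjusted p = 0.000883). Day 14 GFP+ cells held 5, 7 and 1 counts of Sp5, each library below every day 14 GFP- library in CPM. That difference was not called in the same fit (-0.85 ± 0.56, adjusted p = 0.389). naivex2 iPSC held 6, 11 and 14 counts of Sp5 and 6, 10 and 5 of T, both above MEF in that fit (2.49 ± 0.67, adjusted p = 0.00153, and 2.24 ± 0.83, adjusted p = 0.0217). In totalx2 cells Sp5 had 0 counts in all day 10 GFP- and all day 12 GFP+ libraries and 1, 3 and 3 counts in day 10 GFP+ cells. In the fit with no filter Sp5 was higher in day 10 GFP+ than GFP- cells (adjusted p = 0.0263) and lower in GFP+ cells of day 12 than of day 10 (adjusted p = 0.0321). T had 0, 7 and 3 counts in day 10 GFP+ cells and at most 2 in any other totalx2 sorted library. That fit also called Sp5 (adjusted p = 0.00119) and T (0.0208) higher in wild-type iPSC than in day 12 GFP+ cells, Sp5 higher in naivex2 GFP+ cells of day 14 than of day 12 (0.0428) and T higher in naivex2 iPSC than in day 14 GFP+ cells (0.0480). The 12 other primitive streak and mesendoderm markers summed to 2.76 to 15.2 CPM over all libraries, with Msgn1 at 0 in 13 of 14 groups.

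**Figure D4:**
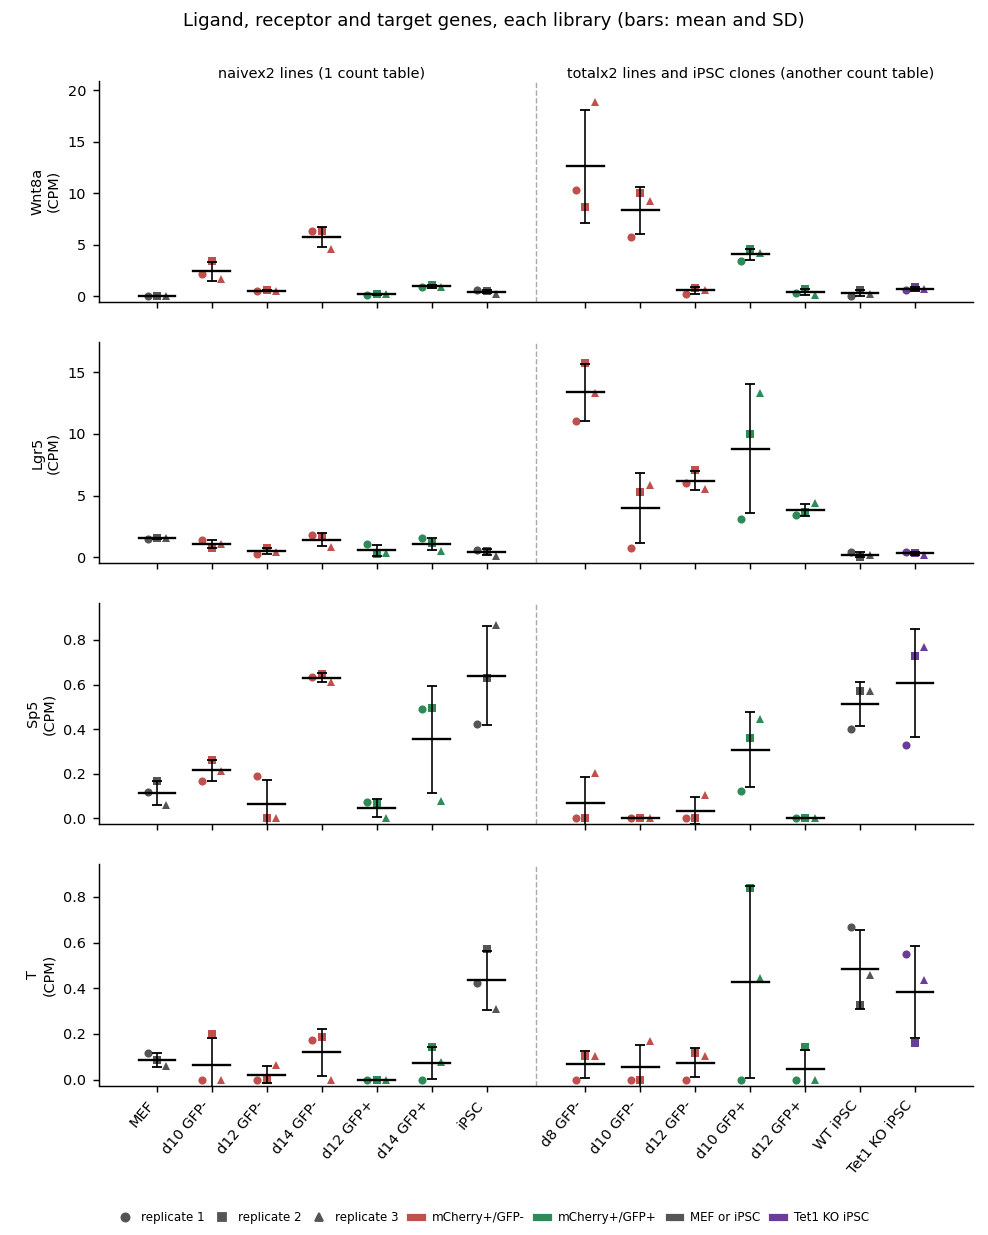
Level (CPM, linear axis from 0) of Wnt8a, Lgr5, Sp5 and T in every library by group; symbols are replicates, the long bar is the mean and the whisker the SD (n = 3). Within the totalx2 table the means of Wnt8a and Lgr5 are highest in day 8 cells (8.63 to 18.8 and 11.1 to 15.7 CPM). Day 8 libraries overlap day 10 GFP- cells for Wnt8a and day 10 GFP+ cells for Lgr5. Sp5 and T stay below 1 CPM in every library.

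Loss of Tet1 went with more Lef1. The targeted gene was at 54.3, 58.6 and 57.3 CPM in the knockout clones and at 1303, 823 and 874 CPM in the wild-type clones. Lef1 was at 30.4, 27.9 and 33.1 CPM in the knockout clones against 5.60, 2.36 and 2.11 CPM, a 9.57-fold difference with no overlap (3.26 ± 0.33, adjusted p = 3.41e-06). Without wild-type replicate 1, the library with 12.2% mitochondrial counts, the difference was 3.77. The naivex2 iPSC clones spread from 5.08 to 15.03 CPM, in a table of their own.

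Notum was at 17.1, 17.2 and 17.3 CPM in the knockout clones and at 7.87, 9.21 and 9.01 CPM in the wild-type clones. The difference of 0.98 ± 0.26 passed the threshold (adjusted p = 0.0223) and was lost when any 1 knockout clone was left out (0.0645 to 0.0666). Axin2, at 8.91, 10.5 and 12.3 CPM against 9.07, 8.80 and 7.19 CPM, overlapped (0.35 ± 0.26, adjusted p = 0.408). Tcf7 was at 6.71, 5.99 and 5.92 CPM against 1.07, 4.16 and 4.91 CPM (0.80 ± 0.32, adjusted p = 0.118). It was called without wild-type replicate 3 (adjusted p = 0.0488), which leaves the low replicate 1 in, and not without replicate 1 (0.257). Tcf7l1 was at 198, 209 and 194 CPM against 278, 169 and 157 CPM, a difference of 0.00 ± 0.15 (adjusted p = 0.995) that became 0.30 without wild-type replicate 1 (0.0666). Nkd1, Wnt8a and Lgr5 were not called (adjusted p 0.262 to 0.80). The T lymphocyte markers summed to 33.6 to 39.1 CPM in knockout and 29.9 to 34.0 CPM in wild-type clones, with Cd3d and Cd3g at 0 in all 6, and 0 of 3 tested were called.

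Other genes of the pathway were followed by lists chosen by role. From MEF to day 10, 38.8% of all genes tested rose and 37.6% fell. Of 14 tested WNT ligand genes other than Wnt8a, 9 fell and 2 rose from MEF to day 10, with Wnt5a, a non-canonical ligand of mesenchyme, from 253 to 2.67 CPM (-6.57 ± 0.38) and Wnt4 from 29.6 to 0.606 CPM (-5.58 ± 0.22). The median of the ligands was -4.74. Wls, which carries ligands to the cell surface, fell from 350 to 13.04 CPM, while Porcn, which attaches their lipid, rose from 4.02 to 35.4 CPM (3.13 ± 0.17). Among 19 receptor and turnover genes 13 fell and 3 rose (median -1.31), Fzd5 rising from 29.4 to 179 CPM. Of 17 genes of beta-catenin and its destruction complex 8 fell and 5 rose, with a median of -0.11. In the same step 8 of 10 fibroblast genes fell, and the part of fibroblast loss in these counts was not tested. Of 9 naive genes known to be repressed by TCF7L1, 7 rose and 1 fell, among them Esrrb (0.280 CPM in MEF, 578 CPM at day 10) and Nanog (0.452 and 535 CPM), in cells where Tcf7l1 rose too. All 10 pluripotency genes, Esrrb and Nanog among them, rose in this step, with a median of 10.7.

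From day 12 to day 14 in naivex2 GFP- cells, where 20.6% of all genes rose and 16.2% fell, 5 of 14 ligands rose and 0 fell, with Wnt7b going from 13.03 to 53.4 CPM (2.03 ± 0.28). Among 10 further WNT target genes 4 rose and 1 fell, including Nkd2, a relative of Nkd1, from 0.705 to 4.15 CPM (2.55 ± 0.27) and Tnfrsf19, a death-receptor relative, from 0.664 to 4.28 CPM (2.62 ± 0.35). The fibroblast genes rose in the same step, 9 of 10, from a sum of 803 to 1287 to one of 3036 to 5036 CPM, and their part was not tested. In GFP+ against GFP- cells at day 14 (14.4% of all genes higher and 16.9% lower), 0 of 14 ligands were higher and 3 lower, Wnt7b at 9.82 against 53.4 CPM. Of 10 further targets 2 were higher and 4 lower: Cdx1, a caudal homeobox gene, was higher (3.33 against 0.638 CPM, 2.35 ± 0.33) and Nkd2 lower (0.843 against 4.15 CPM). Fzd10 was higher in the GFP+ cells as well (14.0 against 3.22 CPM, 2.12 ± 0.23).

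At day 12 in totalx2 cells, where 31.2% of all genes were higher and 30.4% lower in the GFP+ gate, GFP+ cells had 5 of 8 ligands lower and 1 higher and all 10 tested secreted antagonists lower. Apcdd1, a surface inhibitor, was at 37.6 against 113 CPM (-1.59 ± 0.12). Of 18 receptor and turnover genes 6 were higher and 10 lower, with Fzd10 at 4.62 against 0.110 CPM (5.35 ± 0.46). Tnfrsf19 was higher (3.36 against 0.228 CPM, 3.82 ± 0.42). All 9 naive genes of the TCF7L1 list were higher, with a median of 3.37, while Tcf7l1 itself was 181, 184 and 156 against 206, 213 and 186 CPM (-0.22 ± 0.15, adjusted p = 0.231). All 10 pluripotency genes were higher too, with a median of 2.78. The pluripotency and naive lists share Nanog, Esrrb, Zfp42 and Tfcp2l1. All 10 fibroblast genes were lower in the GFP+ cells, and their part in the lists was not tested.

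Between knockout and wild-type iPSC, 4.78% of all genes were higher and 5.87% lower. Of the pathway lists, 1 of 8 ligands, 4 of 18 receptor and turnover genes, 2 of 10 secreted antagonists, 2 of 14 nuclear cofactors and 1 of 9 further targets were called. Ror1, a receptor of non-canonical ligands, was at 3.30 against 0.506 CPM (2.62 ± 0.38, adjusted p = 0.00019) and Apcdd1 at 25.9 against 13 CPM (0.99 ± 0.13, adjusted p = 0.00011). Wnt7b was lower, at 1.81 against 5.75 CPM (-1.69 ± 0.41, adjusted p = 0.012), as 1 of 8 ligands tested. Csnk1e, a kinase of the pathway, was lower at 68.2 against 116 CPM (-0.77 ± 0.08), as 1 of 17 genes of its list. Of 9 naive genes 0 were higher and 1, Tfcp2l1, lower (-0.41 ± 0.11, adjusted p = 0.027). These list genes were not tested again without wild-type replicate 1, the library with 12.2% mitochondrial counts.

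Across group means, Lef1, Axin2 and Notum varied alike in both tables. Pearson's r of log2 CPM over the 6 naivex2 groups without MEF was 0.87 for Lef1 and Axin2, 0.97 for Lef1 and Notum and 0.88 for Axin2 and Notum. Over the 7 groups of the totalx2 table it was 0.90, 0.85 and 0.88. Tcf7l1 and Wnt8a gave 0.95 and 0.76, and Wnt8a and Lgr5 0.88 and 0.61. Wnt8a gave -0.16 and -0.18 with Lef1. Among 10110 genes of at least 10 CPM in the highest group of each table, those closest to Notum by the lower of the 2 correlations were Psmd4 (0.98), Atp5j2 (0.97) and Naa40 (0.97). For Axin2 they were Pak1 (0.97), Rfc3 (0.96) and Prelid1 (0.95), for Lef1 Mrpl17 (0.94), Vegfc (0.90) and Phf23 (0.90), and for Tcf7 Tmem40 (0.93), Zbtb8a (0.92) and Mmp17 (0.91). For Lgr5 they were C3 (0.99), Adamtsl3 (0.95) and Igf1 (0.94), for Wnt8a Dda1 (0.91), Commd7 (0.88) and Stk16 (0.88), for Nkd1 Prrc1 (0.88) and Cdo1 (0.86), and for Tcf7l1 Dnajc9 (0.86), Ppp2r5d (0.84) and Id2 (0.81). The groups share libraries, scaling and lines, and so few points carry no test.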

How the data were processed

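The authors deposited unnormalised read counts for each gene name, in 2 tables of 21 libraries each. Per the file headers, the authors made them with featureCounts 1.5.3 over whole genes (introns included) on the reverse strand (setting 2), with GENCODE annotations that differ between the tables in release. Per the submitters' processing notes, reads were aligned with HISAT2 2.1.0 to mm10. Stranded libraries were prepared from poly(A) RNA, per the labels' protocols. 0 columns lacked a sample.

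The 10 members, the 16 gene lists and the tests were chosen with earlier results of these data known. Each table was reduced to the genes that filterByExpr keeps, given TMM factors and tested in 1 fit of all 7 groups with edgeR 4.0.16 quasi-likelihood F tests (robust) in R 4.3.3, for 17 comparisons, 2 of them differences of GFP effects. P values were adjusted over all genes tested. CPM were taken on TMM totals, and a prior count of 2 was added before logs. A fold against a group at 0 is a bound at 3 counts per library, which is 0.139 to 0.444 CPM. The test was checked on simulated counts that held no line effect, so that check does not cover the pairing of libraries by line. No 2 replicates agreed within sampling noise.

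All 10 members are named in every comparison with a value, from each other list up to 4 called genes with the smallest p, and for each member the 3 genes most alike; some of those list genes are left undescribed, and 1 gene most like Nkd1 is not reported here. Line numbers pair the libraries within the naivex2 and totalx2 series, since the labels name the same lines. Deviations of same-line libraries from group means correlated at -0.121 to 0.359 in naivex2 (32 of 63 pairs over 0.1) and 0.126 to 0.593 in totalx2 (30 of 30). The numbers of the wild-type and knockout iPSC clones share only a number (-0.0909 to 0.0163, 0 of 3), and whether these clones came from separate animals is not given, so p values there measure the spread between clones. For the members alone, the tests were repeated with a replicate block, with DESeq2 1.42.0 and with RLE factors or unscaled library totals. They were also repeated with no filter or one of 1 CPM in 3 libraries, and on only the groups compared. Further fits were made without each library in turn, and without libraries of over 8% mitochondrial counts. Figures were drawn with matplotlib 3.10.9.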

Additional observations from a re-analysis of the deposited data

Results flagged for a closer look

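For 2 members the GFP effect of totalx2 cells differed between days by a test of the difference itself. For Axin2 it was larger at day 12 than at day 10 by 1.60 ± 0.48 on the log2 scale (edgeR quasi-likelihood F test, adjusted p = 0.0184). Day 10 cells held 1.78 ± 0.48 CPM with GFP and 1.73 ± 0.90 without, and day 12 cells 2.99 ± 0.53 and 0.995 ± 0.300 CPM (n = 3). For Notum the difference was 3.46 ± 0.56 (adjusted p = 0.000356), from 2.14 ± 0.79 against 1.61 ± 0.15 CPM at day 10 and 4.13 ± 1.90 against 0.237 ± 0.134 CPM at day 12. The day 12 GFP- libraries held only 8, 1 and 2 counts of Notum. All 3 lines showed a higher level in GFP+ cells at day 12 for both genes. In the same contrast all 10 fibroblast genes had lower GFP effects at day 12 than at day 10, and their part in the 2 results was not tested.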

How the results depend on the processing

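Of 237 values of the 17 counts of called members under the alternatives, 217 stayed within 1.5 times the count reported and 20 did not. Of 1881 values of single members, 58 lost their call, 36 gained one and 0 reversed a called direction. In totalx2 day 10 GFP+ against GFP- cells (0 called) the count was 1 with no filter on low counts, with DESeq2 and in the fit of those groups alone, and 2 with the replicate block. No filter gave 5 in wild-type iPSC against totalx2 day 12 GFP+ cells (3 called), since Sp5 and T then enter. The fit of those groups alone gave 1 in naivex2 iPSC against day 14 GFP+ cells (3 called).

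With each library left out in turn, counts of called members ranged from 2 to 4 for naivex2 GFP- cells between days 12 and 10 (2 called), where Tcf7l1 (adjusted p = 0.0169) and Nkd1 (0.0450) were called without day 10 replicate 2. For naivex2 day 12 GFP+ against GFP- cells (5 called) they ranged from 3 to 4, with 3 without replicate 1 or 2 of the GFP+ or replicate 2 or 3 of the GFP- gate. For naivex2 iPSC against day 14 GFP+ cells (3 called) they ranged from 0 to 4, with 0 without GFP+ replicate 2. There Tcf7l1 lost its call without iPSC replicate 1 or GFP+ replicate 2 or 3 (0.0633 to 0.0867), and Tcf7 (0.0402) and Notum (0.0358) gained one without iPSC replicate 3. In totalx2 the range was 0 to 1 for the gates at day 10 (0 called), where 1 was called without replicate 1 of either gate. It was 1 to 4 for GFP+ cells between days 12 and 10 (3 called), with 1 without replicate 2 of either day, and 1 to 3 for the difference of GFP effects (2 called), with 1 without day 12 GFP- replicate 1. Knockout against wild-type iPSC (2 called) gave 1 to 3, with 1 without any 1 knockout clone.

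Calls of single members gained without 1 library were Lgr5 in naivex2 GFP+ cells between days 14 and 12 (0.0377, GFP+ day 12 replicate 1), Lef1 in naivex2 iPSC against MEF (0.0458, iPSC replicate 2), Lef1 (0.0386, day 12 replicate 1) and Lgr5 (0.0163, day 10 replicate 1) in totalx2 GFP+ cells between days 12 and 10, Nkd1 in totalx2 day 12 GFP+ against GFP- cells (0.0441, GFP+ replicate 2) and Lef1 in wild-type iPSC against totalx2 day 12 GFP+ cells (0.0432, GFP+ replicate 3). The difference of GFP effects in totalx2 gained Lef1 with DESeq2 (0.0496) or without day 12 GFP+ replicate 1 (0.0292), and Lgr5 without day 10 GFP+ replicate 1 (0.0116) or day 10 GFP- replicate 3 (0.0306). The fit of only the groups compared gained Tcf7 in naivex2 day 12 GFP+ against GFP- cells (0.0305) and in totalx2 GFP+ cells between days 12 and 10 (0.0215). The naivex2 day 14 GFP difference of Tcf7l1 lost its call with RLE (0.0626) and DESeq2 (0.0619), and the totalx2 GFP+ rise of Notum with library totals alone (0.0558). The cause was not tested. The replicate block lost 0 calls and gained 6, all named beside their results, and it changed no other call.

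Depth limits values that rest on few counts per library. Among these are Sp5, T, and Notum in naivex2 GFP- cells of days 10 and 12 and totalx2 day 12 GFP- cells. Others are Lef1 in day 12 GFP- cells of both series and Axin2 in naivex2 day 12 GFP- cells (3, 14 and 10 counts). Wnt8a is limited in naivex2 day 12 GFP+ cells and both totalx2 day 12 gates. Nkd1 is limited in totalx2 day 10 GFP+ cells, and Lgr5 in wild-type iPSC.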
